A study of Homo sapiens with 6 samples.

Results

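The immune checkpoint ligands are 10 genes taken by name from the 27968 genes in the files: CD274 (PD-L1), PDCD1LG2 (PD-L2), CD276 (B7-H3), VTCN1 (B7-H4), CD47, PVR (CD155), LGALS9 (galectin-9), ICOSLG, CD80 and CD86. All 10 were listed in every library. RNA was sequenced from A549 and from H23, established human cell lines used as models of lung adenocarcinoma, with 3 independent cultures per line. The A549 cultures were untreated and grown in DMEM, and the H23 cultures were untreated and grown in RPM1640, both with fetal bovine serum, so line and medium cannot be told apart. Each group is a single cultured line, without the immune cells that the ligands face in a tumour.

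Checkpoint ligands sit on, or are released from, tumour and antigen-presenting cells and bind receptors on lymphocytes or macrophages. CD274 and PDCD1LG2 bind PD-1 on T cells and restrain them. CD80 and CD86 bind CD28 to activate T cells and CTLA-4 to restrain them, ICOSLG binds the activating receptor ICOS, and CD276 and VTCN1 are members of the same B7 family with less settled receptors. PVR binds the inhibitory receptor TIGIT and the activating receptor CD226, CD47 binds SIRPA on macrophages as a signal against engulfment, and LGALS9 is a secreted lectin that binds TIM-3.

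The libraries held 23399562 to 25348083 estimated counts in A549 and 29395795 to 42421642 in H23. Across genes, rank correlations of counts were 0.998 among the A549 libraries and 0.998 between H23 replicates 2 and 3, but 0.977 between H23 replicate 1 and each of these, so that library stood apart. Where leaving it out changed calls of the ligands or of the gene lists around them, the value without it is given beside the result. The same was done where a fold moved by over 1.5 times. Levels of 1 gene in the lines are compared as CPM, counts scaled to library size with TMM factors, and levels of different genes as TPM, RSEM's transcript abundance, which takes length into account. A gene is called where the adjusted p of edgeR's quasi-likelihood test is under 0.05, and log2 folds are A549 over H23 with an approximate standard error. The epithelial keratins KRT8, KRT18, KRT19 and KRT7 with EPCAM and CDH1 summed to 5761 to 5975 TPM in A549 and 3982 to 4132 TPM in H23. These 6 genes went both ways, with 3 called higher in A549, 2 lower and KRT18 not called. KRT7 had a log2 fold of 11.56, with 2416 to 2625 TPM in A549 against 1.11 to 1.36 TPM in H23. The log2 folds were 3.72 for KRT19, 0.55 for KRT8, -0.91 for EPCAM and -1.43 for CDH1. KRT18 had 1845 to 1885 TPM in A549 against 2602 to 2639 TPM in H23. Of 11 blood cell markers, summing to 7.18 to 8.18 TPM in A549 and 7.93 to 15.13 TPM in H23, 7 were too low to test, among them PTPRC with 1 count in A549 and 0 in H23 and CD3E and MS4A1 with 0 in all 6 libraries. Of the other 4, CD14, ITGAM and CD68 were not called and ITGAX was higher in A549, with 9, 10 and 14 counts in A549 against 1, 0 and 1 in H23. ITGAX passed the filter on low counts through A549 alone, so it could only be called higher there. Of 4 distal lung markers, the factor NKX2-1 had 0 counts in A549 and 103 to 110 in each H23 library, NAPSA was not called, SFTPB had 13 counts in A549 and 3 in H23, and SFTPC had 2 in A549 and 0 in H23.

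A549 and H23 differed in the levels of several of these ligands. A549 had more PVR, CD274 and PDCD1LG2, H23 had more ICOSLG, both lines carried CD47 and CD276 at levels whose order turned with the scale, and the other 4 ligands were at or near 0 in both. Of the 10 ligands, 6 had enough counts to be tested, and 4 of those were called higher in A549, 1 lower and 1 not called, while limma on log2(TPM + 1), a fit without PDCD1LG2, called 2 higher and 3 lower. Over all 15426 genes tested, 77.2% were called, 37.6% higher and 39.6% lower in A549, so being called does not set the ligands apart from other genes. With H23 replicate 1 left out 13774 genes were called, against 11910 with it, and 5 ligands were called higher and 1 lower. Of the 6, CD274, PDCD1LG2, PVR and ICOSLG were called with at least a 2-fold difference, as were 50.1% of all genes tested. The median log2 fold of the 6 tested ligands was 1.13, and 0.46 without PDCD1LG2, which passed the filter through A549 alone, against -0.03 over all genes tested. In bulk RNA, fewer cells with a transcript and less of it per cell cannot be told apart.

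Summed over the 10 genes, the ligands came to 103, 102 and 113 TPM in the A549 libraries, against 61.7, 77.8 and 81.9 TPM in the H23 libraries. All A549 sums lay above all H23 sums, and the lowest was H23 replicate 1. PVR supplied most of it in A549, 69.2% ± 1.27 of the summed TPM, against 36.3% ± 4.13 in H23 (SD, n = 3 each). With PVR left out, the summed TPM was lower in every A549 library than in every H23 library. CD276 supplied 13.9% in A549 and 24.0% in H23, CD47 12.9% in A549 and 24.4% in H23, and ICOSLG 0.323% in A549 and 14.1% in H23. In A549 the order by TPM was PVR, CD276, CD47, CD274, PDCD1LG2 and ICOSLG, each without overlap with the next, followed by LGALS9, VTCN1, CD80 and CD86 near 0. In H23 PVR came first without overlap, CD47 and CD276 overlapped in the next places, ICOSLG, CD274 and LGALS9 followed without overlap, and CD80, VTCN1, PDCD1LG2 and CD86 closed the order with overlapping or 0 values.

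**Figure D1:**
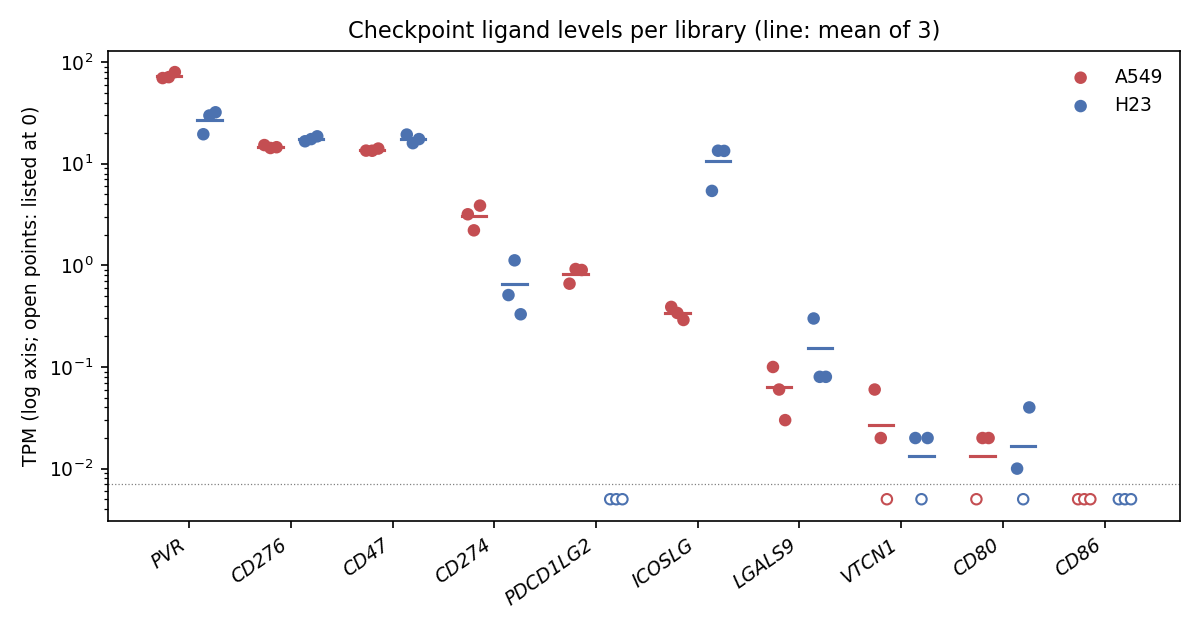
Level of each ligand in TPM on a log axis, with 1 point per library, A549 left of H23 and a short line at the mean of 3; open points are libraries listed at 0. PVR is the highest ligand in both lines, PDCD1LG2 has points above 0 in A549 only, and ICOSLG is at most 0.39 TPM in A549 and between 5.40 and 13.42 TPM in H23.

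CD274 and PDCD1LG2, the ligands of PD-1, were both higher in A549. CD274 had 6.32, 7.47 and 8.41 CPM in the A549 libraries, against 0.581, 0.936 and 0.494 CPM in the H23 libraries. Every A549 value lay above every H23 value; over all genes tested, 82.1% had no overlap in one direction or the other. The log2 fold was 3.49 ± 0.26 (edgeR adjusted p = 2.28e-05), 11.2-fold, and 12.5% of tested genes had a larger absolute fold. PDCD1LG2 had 34, 50 and 42 counts in A549, a mean of 1.74 ± 0.298 CPM, against 0 counts in all 3 H23 libraries. The lines did not overlap, and set against a floor of 3 counts over the H23 group PDCD1LG2 was at least 64.1-fold higher in A549 (edgeR adjusted p = 0.000104). Per length both stayed low beside PVR, with 3.09 ± 0.834 TPM of CD274 and 0.827 ± 0.145 TPM of PDCD1LG2 in A549. The fold of CD274 was smaller on the log2(TPM + 1) scale, where it was 1.31 (limma adjusted p = 0.00116). On log2(TPM + 0.1) it was 2.18 (limma adjusted p = 0.00206). The mean of CD274 in H23 was 0.653 TPM, which is below the added 1.

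PVR, a nectin-like adhesion receptor first known as the poliovirus receptor, was the most abundant ligand in both lines and higher in A549. It had 317, 322 and 322 CPM in A549, against 72.6, 97.5 and 106 CPM in H23. The A549 values lay close together and all above H23, where replicate 1 was lowest. The log2 fold was 1.80 ± 0.14 (edgeR adjusted p = 3.32e-05), 3.48-fold, and was 1.65 without H23 replicate 1. Per length PVR averaged 73.4 ± 5.43 TPM in A549 and 27.1 ± 6.70 TPM in H23 (SD, n = 3 each).

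ICOSLG, the ligand of the T cell costimulator ICOS, was the ligand that fell in A549. It had 28, 26 and 18 counts in A549, against 416, 778 and 1094 counts in H23, or 0.993 ± 0.198 CPM in A549 and 20.9 ± 8.59 CPM in H23 (SD, n = 3 each). All A549 values lay below all H23 values, and H23 replicate 1 was well below the other H23 libraries. The log2 fold was -4.39 ± 0.41 (edgeR adjusted p = 7.02e-05), 20.9-fold lower in A549, and -4.70 without H23 replicate 1. A larger absolute fold was seen in 9.26% of tested genes. In TPM it averaged 0.34 ± 0.05 in A549 and 10.7 ± 4.61 in H23, below PVR, CD47 and CD276 in H23.

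CD276 and CD47 were present in both lines, and their direction turned with the scale. CD276 had 46.3, 44.1 and 42.3 CPM in A549, against 31.1, 32.0 and 33.3 CPM in H23. The lines did not overlap and the log2 fold was 0.46 ± 0.08 (edgeR adjusted p = 0.00176). After removal of the trend of folds with GC content and length it was 0.97 (edgeR adjusted p = 6.57e-05). In TPM the order was the reverse, with 15.25, 14.27 and 14.53 TPM in A549, against 16.62, 17.46 and 18.59 TPM in H23, again without overlap. On log2(TPM + 1) the difference was -0.24 (limma adjusted p = 0.0333), where 25.2% of genes were called higher and 54.8% lower in A549 and the median of all genes was -0.48, so CD276 stood above that median on both scales. CD47 had 65.7, 66.3 and 65.1 CPM in A549, against 67.6, 50.8 and 55.6 CPM in H23. H23 replicate 1 exceeded all A549 libraries and the other H23 libraries lay below them. The log2 fold of CD47 was 0.18 ± 0.12 (edgeR adjusted p = 0.201), which does not show the levels to be equal. Without H23 replicate 1 it was 0.30 (edgeR adjusted p = 1.39e-05), on log2(TPM + 1) it was -0.34 (limma adjusted p = 0.0151), and after removal of the trend of folds with GC content and length it was -1.05 (edgeR adjusted p = 8.79e-05). Like CD276, CD47 stood above the median of all genes in the edgeR fit and on log2(TPM + 1), but it stood below that median with the trend removed. The direction of CD47 between the lines therefore cannot be given.

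**Figure D2:**
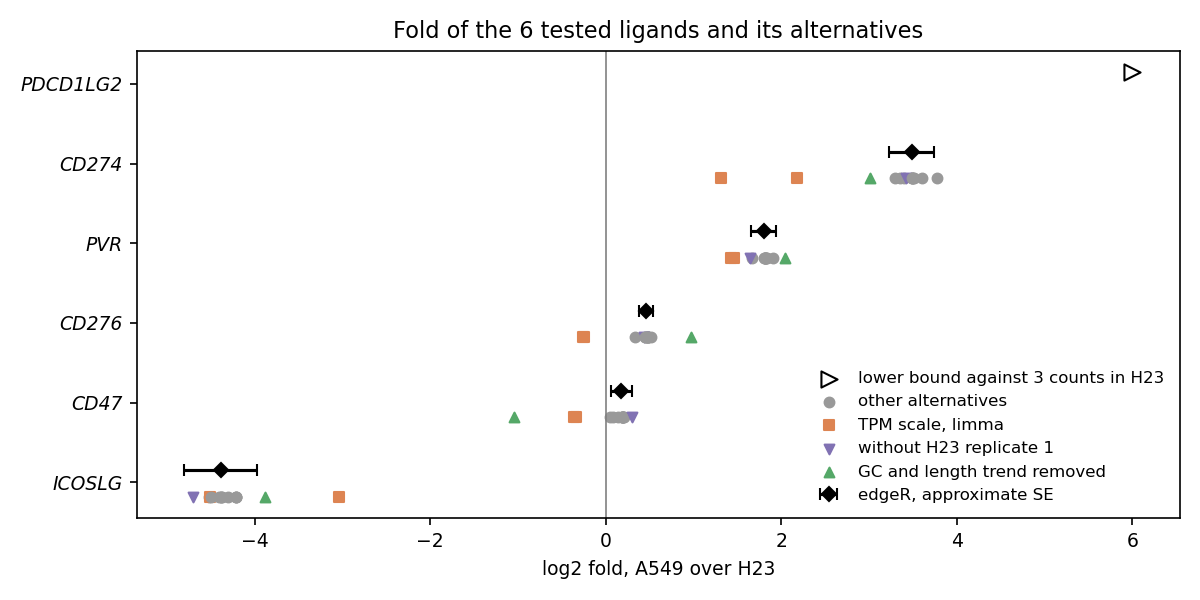
Log2 fold, A549 over H23, of the 6 tested ligands: black diamonds with bars are the edgeR folds and their approximate standard errors, the coloured and grey marks under them are the same fold under the alternative settings, and the open triangle is the lower bound for PDCD1LG2. CD274, PVR and ICOSLG keep their side of 0 in all settings, while CD276 turns to -0.24 on log2(TPM + 1) and CD47 to -1.05 with the GC and length trend removed.

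The remaining 4 ligands did not pass the filter on low counts and were not tested. VTCN1, a B7 family inhibitor of T cells, had 3, 1 and 0 counts in A549, against 1, 0 and 1 in H23, a ratio of 3.05 with a 95% counting interval of 0.437 to 33.7. LGALS9 had 3, 2 and 1 counts in A549, against 11, 2 and 3 in H23, where replicate 1 held most of them. All its H23 counts and those of A549 replicates 2 and 3 were assigned to NR_024043, a non-coding RefSeq record. Those of A549 replicate 1 were assigned to NM_001330163. The near-identical copies of LGALS9, LGALS9B and LGALS9C, had at most 1 count in any library, so few reads were assigned to them. CD80 had 0, 1 and 1 counts in A549, against 1, 0 and 3 in H23, and CD86 had 0 in all 6 libraries. A count of 0 over a line allows up to 0.0415 CPM in A549 and 0.0272 CPM in H23, counting error only, so that a difference in CD86 was not detectable at this depth. Run without the filter, edgeR gave adjusted p of 0.338 for VTCN1, 0.45 for LGALS9 and 0.835 for CD80.

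The promoters of the 3 called ligands with the largest folds among those in the RefSeq promoter table (GRCh38.p14) are shown because the lines differ in these genes and because CD274 is known to be induced by interferon through its promoter. Each is the 250 bases before the annotated start, 5′ to 3′ on the gene's strand, at chr9:5450292-5450541 (plus strand) for CD274, chr19:44643660-44643909 (plus strand) for PVR and chr21:44240944-44241193 (minus strand) for ICOSLG. Capitals mark matches, on either strand, to 5 motifs: the interferon regulatory factor repeat (GAAA, 2 unspecified bases, GAAA), the STAT site TTCNNNGAA, the AP-1 site TGANTCA, the SP GC box GGGCGG and the NRF1 site (GCGCA, 1 unspecified base, GCGC). In these windows no match to one motif overlapped a match to another, while matches to the same motif could overlap.
CD274: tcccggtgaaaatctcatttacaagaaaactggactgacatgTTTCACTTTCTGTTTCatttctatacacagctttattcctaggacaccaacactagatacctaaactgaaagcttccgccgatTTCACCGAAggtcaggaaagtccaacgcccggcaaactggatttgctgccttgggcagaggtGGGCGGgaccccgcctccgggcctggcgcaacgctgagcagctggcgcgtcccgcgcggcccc
PVR: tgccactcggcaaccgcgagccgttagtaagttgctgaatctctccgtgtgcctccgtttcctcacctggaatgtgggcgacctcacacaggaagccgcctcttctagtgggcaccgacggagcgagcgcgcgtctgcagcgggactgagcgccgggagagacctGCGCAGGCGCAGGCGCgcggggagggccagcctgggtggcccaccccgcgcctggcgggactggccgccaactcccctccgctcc
ICOSLG: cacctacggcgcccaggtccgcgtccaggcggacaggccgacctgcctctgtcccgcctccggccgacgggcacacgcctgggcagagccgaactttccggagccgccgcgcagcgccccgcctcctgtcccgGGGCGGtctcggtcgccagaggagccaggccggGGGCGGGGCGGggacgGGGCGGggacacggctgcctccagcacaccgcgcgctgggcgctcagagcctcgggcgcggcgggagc
The CD274 window held 2 overlapping interferon regulatory factor repeats, 1 STAT site and 1 GC box, the PVR window 2 overlapping NRF1 sites and the ICOSLG window 4 GC boxes. Of 35116 promoters of this length in the table, 3.02% held the interferon regulatory factor repeat, 6.57% the STAT site, 6.57% the AP-1 site, 42.6% the GC box and 5.07% the NRF1 site. A match describes letters and not binding. In all, 9 of the 10 ligands had a promoter in the table, and PDCD1LG2 had none.

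Several of the ligands are made in more than 1 form, and the transcript tables give each form's share of its gene. Of 7539 genes with at least 2 tested transcripts, 1944 (25.8%) were called for a change of transcript usage by edgeR's diffSpliceDGE test. Of the 5 ligands in that test, CD47, PVR and CD276 were called and CD274 and ICOSLG were not. With the Simes method of the same edgeR function 0 of the 5 were called, and 955 genes were called in all. The unadjusted Simes p was 0.0247 for PVR, 0.0457 for CD276 and 0.106 for CD47.

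Of these ligands, CD276 had the widest difference in form between the lines. The transcript NM_001024736, which encodes the long protein with a doubled pair of immunoglobulin domains, made up 83.62%, 89.00% and 100% of CD276 in the A549 libraries, against 0%, 12.93% and 15.13% in the H23 libraries. This transcript took most of CD276 in every A549 library and a minor share in every H23 library, with no overlap. NM_025240, which encodes the short protein with a single pair of such domains, made up 3.98%, 1.29% and 0% in A549, against 66.23%, 33.40% and 44.68% in H23. Another transcript, NM_001329629, of 3268 bases, averaged 7.36% in A549 and 42.5% in H23; it was not matched to a GENCODE model, so the protein form it encodes is not given here, and the shares of long and short protein in H23 cannot be read from these transcripts. NM_001024736 is 3401 bases with 534 codons in 10 exons, and NM_025240 2747 bases with 316 codons in 8 exons (coding lengths from GENCODE models of the same transcripts). The usage test gave an edgeR adjusted p of 0.029 for CD276, which was above the threshold, at 0.0538 to 0.134, without H23 replicate 2 or 3 or any A549 library, and 0.00955 without H23 replicate 1. The domain pairs of the long form are near copies of each other, so reads inside them were divided between forms by the model.

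PVR is spliced into membrane forms and forms that lack the membrane span and are secreted. The membrane form alpha (NM_006505, 5903 bases) made up 50.03%, 50.48% and 46.54% in A549, against 60.04%, 76.55% and 72.04% in H23. The membrane form delta (NM_001135770, 1643 bases) made up 21.45%, 23.66% and 28.42% in A549, against 5.11%, 10.87% and 9.28% in H23. Alpha was thus lower and delta higher in A549, with no overlap for either. The secreted forms beta and gamma together made up 28.52%, 25.85% and 25.04% in A549, against 34.84%, 12.58% and 18.69% in H23, and these overlapped, with H23 replicate 1 highest. The usage test gave an edgeR adjusted p of 0.0167 for PVR, which was 0.0699 without H23 replicate 3 and 0.0762 to 0.132 without each A549 library.

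CD47 forms differ in the length of the tail inside the cell. NM_198793, with 305 codons, made up 93.32%, 94.18% and 96.84% in A549, against 85.57%, 83.88% and 83.43% in H23, without overlap. NM_001777, with the longer tail and 323 codons, averaged 5.22% in A549 and 15.7% in H23. The edgeR adjusted p for CD47 usage was 0.00884, and it stayed under 0.05 with each library left out in turn. With the Simes method the edgeR adjusted p was 0.426, and CD47 was not called. In CD274 the full-length transcript NM_014143 made up 48.77%, 93.87% and 55.72% in A549, against 34.31%, 21.51% and 47.33% in H23. The short transcript NM_001314029, of 907 bases, made up 51.23%, 0% and 39.43% in A549, against 65.69%, 78.49% and 38.57% in H23. The full-length form did not overlap, though its lowest A549 share, 48.77%, lay close to its highest H23 share, 47.33%. The short form overlapped between the lines and the usage of CD274 was not called (edgeR adjusted p = 0.35). H23 had only 71 CD274 counts in all to divide between forms.

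**Figure D3:**
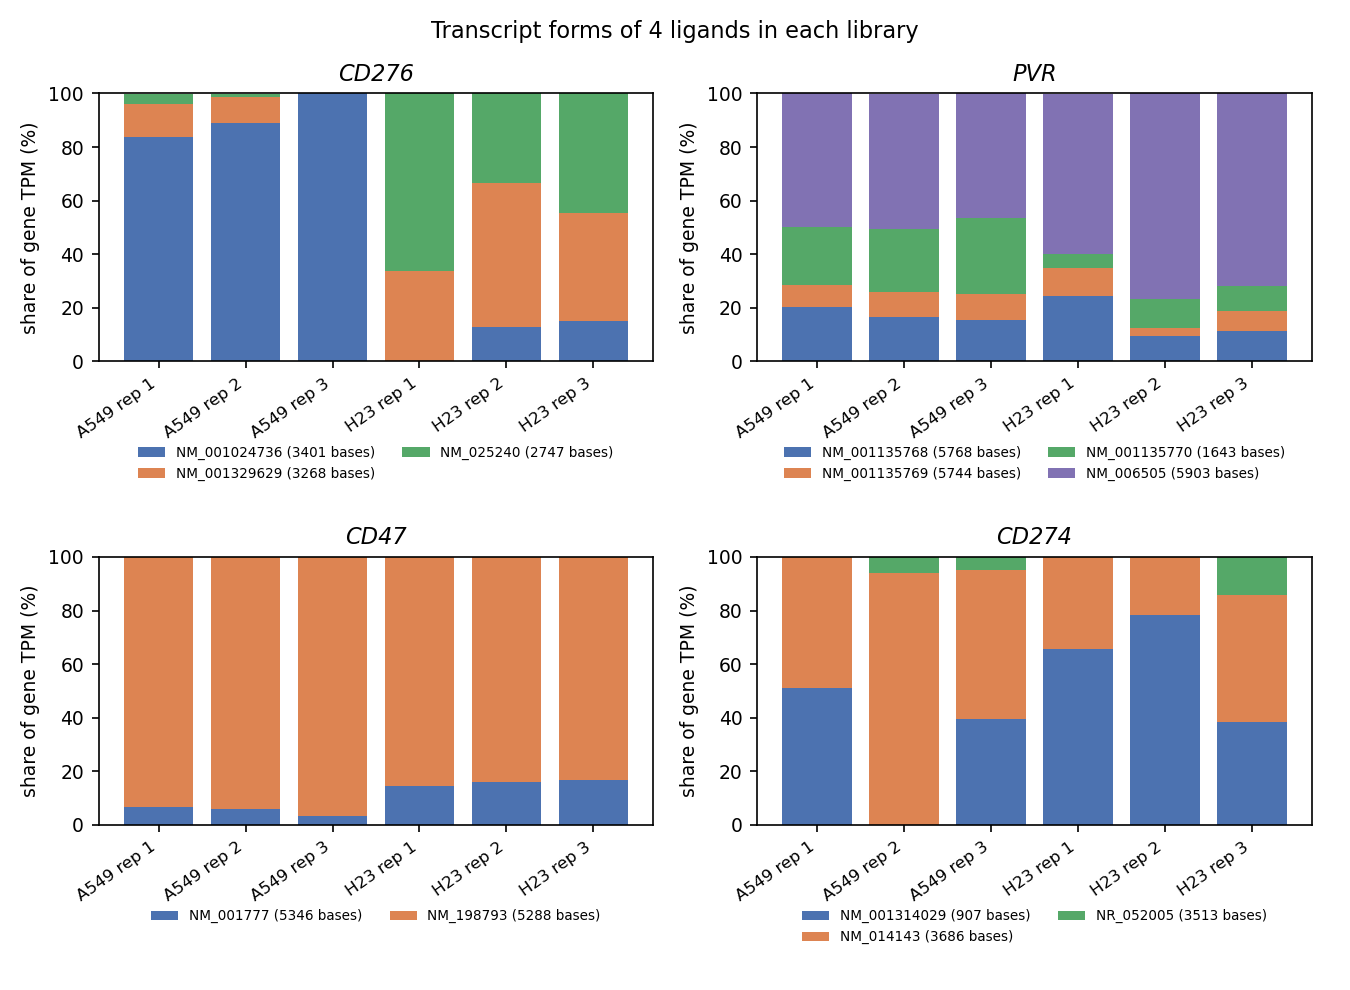
Share of each gene's TPM taken by its transcripts, in percent, as stacked bars for the 3 A549 libraries on the left and the 3 H23 libraries on the right, for CD276, PVR, CD47 and CD274. The CD276 transcript NM_001024736 fills at least 83.62% of every A549 bar and at most 15.13% of every H23 bar.

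CD274 and PDCD1LG2 are neighbours on chromosome 9, and the genes around them were read in the order of the reference. Of the 7 other genes nearest to CD274, 4 on each side counting PDCD1LG2, 5 were tested, 4 were higher in A549, 0 lower and 1 not called, where 37.6% of all genes tested were higher and 39.6% lower. INSL4, an insulin-like peptide gene of placenta, had 294, 248 and 260 counts in A549 against 0 in all H23 libraries, at least 408-fold higher (edgeR adjusted p = 8.68e-06). INSL4 also passed the filter on low counts through A549 alone, so it could only be called higher there. RIC1, a vesicle transport factor, and ERMP1, an endoplasmic reticulum peptidase, had log2 folds of 1.80 ± 0.09 and 2.69 ± 0.12. KIAA2026 had 533, 530 and 511 counts in A549 against 158, 54 and 63 in H23, a log2 fold of 3.13 ± 0.37, or 3.74 without H23 replicate 1. PLGRKT, the plasminogen receptor gene next to CD274, was not called, at 13.3, 13.5 and 13.9 CPM in A549 against 18.1, 12.9 and 12.5 CPM in H23. Its log2 fold was -0.09 ± 0.16 (edgeR adjusted p = 0.608) and 0.10 without H23 replicate 1, but it was called lower on log2(TPM + 1), at -0.58 (limma adjusted p = 0.00407), and with the GC and length trend removed, at -0.41 (edgeR adjusted p = 0.00188). In TPM the lines did not overlap, with 17.01 to 18.85 TPM in A549 against 24.31 to 32.19 TPM in H23. RLN2, a relaxin gene that was not tested, had 11, 8 and 5 counts in A549 and 0 in H23, with the reservation that RLN1 is a near-identical copy. Around PVR, 3 of 4 tested neighbours were higher and 1 lower, around CD276 1 of 5 higher and 2 lower, around CD47 2 of 3 higher and 1 lower, and around ICOSLG 1 of 5 higher and 2 lower, to be read against the same shares over all genes. Copy number was not measured, and its part in these values was not tested.

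**Figure D4:**
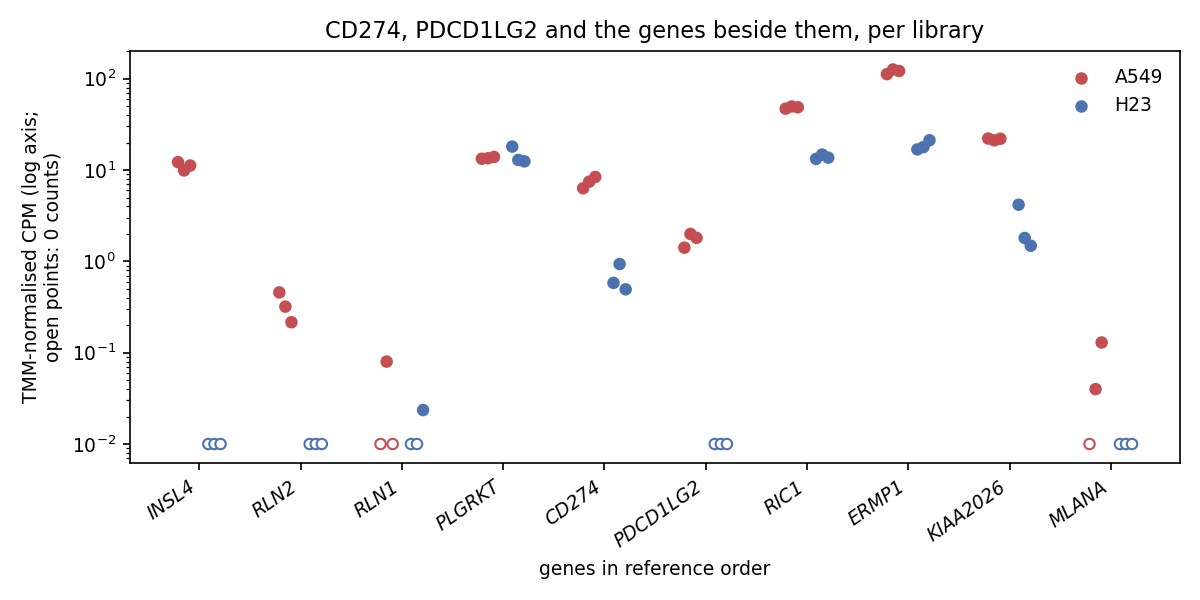
TMM-normalised CPM on a log axis of CD274, PDCD1LG2 and the genes beside them in reference order, with 1 point per library and A549 left of H23; open points are libraries with 0 counts. PLGRKT overlaps between the lines on this scale, while INSL4, CD274, PDCD1LG2, RIC1, ERMP1 and KIAA2026 lie higher in all A549 libraries.

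Other ligands of lymphocyte and macrophage receptors, read from a list of 20 genes, went both ways. Of 15 tested, 7 were higher in A549, 6 lower and 2 not called, with a median log2 fold of 0.24 against -0.03 over all genes tested. With H23 replicate 1 left out 8 were higher and 6 lower. Of all genes tested, 77.2% were called, 37.6% higher and 39.6% lower. FGL1, a secreted ligand of LAG-3, had 145, 178 and 123 counts in A549 against 0 in all H23 libraries, at least 227-fold higher (edgeR adjusted p = 2.25e-05). FGL1 passed the filter on low counts through A549 alone, so it could only be called higher there. IGSF11, a ligand of the inhibitory receptor VISTA, had a log2 fold of 6.99 ± 0.17 and CD24, a ligand of Siglec-10 on macrophages, 5.80 ± 0.20. NECTIN3, an adhesion partner of PVR and of TIGIT, averaged 86.8 ± 2.37 CPM in A549 against 4.38 ± 0.934 CPM in H23. Its log2 fold was 4.30 ± 0.17. On the lower side, CEACAM1, a ligand of TIM-3, had 2, 3 and 3 counts in A549 against 113, 110 and 195 in H23, a log2 fold of -5.03 ± 0.32. TNFRSF14 (HVEM), the ligand of BTLA, had 4, 1 and 4 counts in A549 against 123, 98 and 147 in H23, a log2 fold of -4.69 ± 0.34. The costimulatory ligands TNFSF4 (OX40 ligand) and CD70 had log2 folds of -2.80 ± 0.62 and -0.92 ± 0.10. TNFSF4 had 2, 4 and 1 counts in A549 against 18, 14 and 47 in H23. CEACAM1, TNFRSF14 and TNFSF4 passed the filter on low counts through H23 alone, so they could only be called lower in A549.

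Most receptors and partners of the ligands had too few counts to be tested. Of 17 genes, 11 were not tested, and of these CTLA4, CD28, ICOS, SIRPG and TREML2 had 0 counts in all 6 libraries. PDCD1, which encodes PD-1, had 1 count in A549 and 3 in H23, and TIGIT had 2 in A549 and 3 in H23, while HAVCR2, which encodes TIM-3, had 12 in A549 and 8 in H23. SIRPA, the receptor of CD47, averaged 55.1 ± 3.32 CPM in A549 against 6.92 ± 1.03 CPM in H23, with a log2 fold of 2.99 ± 0.13 (edgeR adjusted p = 2.52e-06). THBS1, a secreted matrix protein that also binds CD47, had a log2 fold of 1.68 ± 0.23. LAG3, an inhibitory receptor, and RGMB, a partner of PDCD1LG2, fell in A549, with log2 folds of -3.42 ± 0.26 and -0.82 ± 0.10. LAG3 had 11, 7 and 8 counts in A549 against 176, 111 and 140 in H23. It passed the filter on low counts through H23 alone, so it could only be called lower in A549. CD226, a receptor of PVR, and PVRIG, a receptor of the related NECTIN2, were not called, with 9, 9 and 11 counts of CD226 in A549 against 8, 6 and 21 in H23, and 18, 14 and 21 counts of PVRIG in A549 against 14, 20 and 15 in H23.

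The interferon route to CD274 runs from receptors through JAK kinases and STAT factors to IRF1, with SOCS proteins and PTPN2 as brakes. Of 15 genes of this route, 4 were higher in A549, 8 lower and 3 not called, with a median log2 fold of -0.43. With H23 replicate 1 left out edgeR called 5 higher and 10 lower, and limma on log2(TPM + 1) called 4 higher and 10 lower. Over all genes tested, 37.6% were higher and 39.6% lower. JAK2, which lies on the same chromosome arm as CD274, had 335, 349 and 289 counts in A549 against 106, 43 and 47 in H23, where replicate 1 was highest, a log2 fold of 2.91 ± 0.32 (edgeR adjusted p = 0.000164), or 3.42 without that library. JAK1 had a log2 fold of 1.41 ± 0.07, SOCS3 0.98 ± 0.08 and IRF2, a repressor of interferon genes, 0.92 ± 0.15. The receptor chains IFNGR2 and IFNAR2 fell, with log2 folds of -2.02 ± 0.08 and -1.85 ± 0.11. IRF1, the factor that binds the CD274 promoter after interferon gamma, fell by 1.06 on the log2 scale, to 19.3 ± 0.904 CPM in A549, against 40.2 ± 6.66 CPM in H23. SOCS1 had 8 counts in A549 and 137 in H23, a log2 fold of -3.44 ± 0.39. It passed the filter on low counts through H23 alone, so it could only be called lower in A549.

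Other regulators of the ligands were also split, with 7 of 16 higher in A549, 3 lower and 6 not called, and a median log2 fold of 0.11, where 37.6% of all genes tested were higher and 39.6% lower. On log2(TPM + 1) with limma the balance turned, with 3 higher and 10 lower, and without H23 replicate 1 edgeR called 8 higher and 6 lower. HIF1A, the hypoxia factor that acts on CD274, averaged 472 ± 9.99 CPM in A549 against 65.8 ± 26.7 CPM in H23, with a log2 fold of 2.84 ± 0.27 (edgeR adjusted p = 7.84e-05), or 3.22 without H23 replicate 1. CMTM6, which keeps PD-L1 protein at the cell surface, averaged 160 ± 4.50 CPM in A549 and 81.7 ± 7.01 CPM in H23. Its log2 fold was 0.97 ± 0.09, and 0.08 after removal of the GC and length trend (edgeR adjusted p = 0.654). SPOP, a ubiquitin ligase adaptor for PD-L1, had a log2 fold of 0.94 ± 0.08, and the deubiquitinase USP22 0.61 ± 0.16, or 0.08 on log2(TPM + 1) (limma adjusted p = 0.701). RELA, the NF-kappaB subunit, fell in A549, with a log2 fold of -1.65 ± 0.11. The ubiquitin ligase STUB1 had a log2 fold of -0.64 ± 0.09, which was 0.15 with that trend removed (edgeR adjusted p = 0.0664). HIP1R, which carries PD-L1 to lysosomes, had a log2 fold of -0.37 ± 0.09 (edgeR adjusted p = 0.00962), which was 0.0620 with that trend removed (edgeR adjusted p = 0.460) and -0.33 without A549 replicate 3 (edgeR adjusted p = 0.0552).

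**Figure D5:**
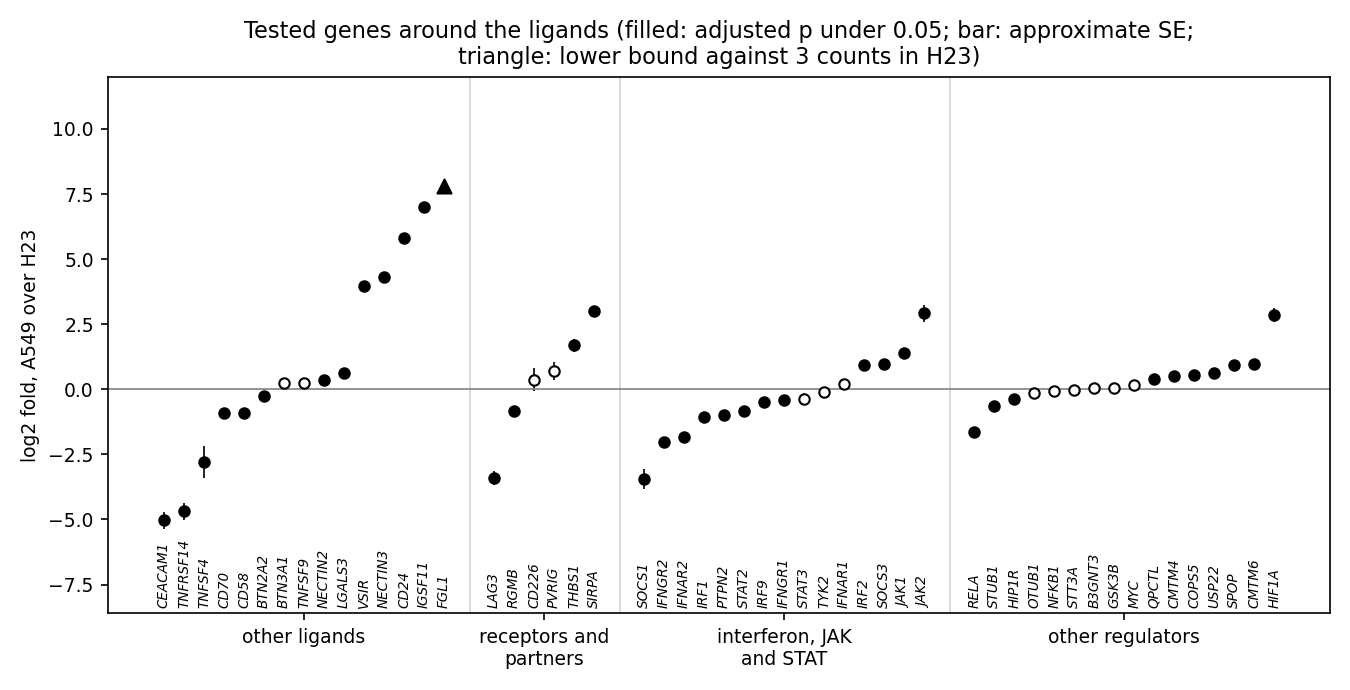
Log2 fold, A549 over H23, of the tested genes of 4 lists around the ligands, with bars for the approximate standard error; filled marks were called, open circles were not, and the triangle is the lower bound of FGL1. Each list has members on both sides of 0.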

How the data were processed

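RNA was measured in 3 libraries of A549 and 3 of H23, grouped by the labels. Per the labels' protocols, libraries were stranded, from total RNA without ribosomal RNA. The submitters' processing notes name STAR 2.6.0c, RSEM 1.3.0 and hg19; options, annotation release and strand setting are not given in the sources used here. Per the file headers, expected counts are estimates of reads for each gene or transcript in RSEM's layout. The authors' TPM values are scaled for length and depth. The deposited FPKM values were not used in any result. The share of a gene taken by each transcript is the authors' deposited percent value.

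Expected counts were rounded and analysed in R 4.3.3 with edgeR 4.0.16: filterByExpr (15426 of 27968 genes left), TMM factors, robust quasi-likelihood F test, Benjamini-Hochberg adjustment over all genes, threshold 0.05. Approximate standard errors are the size of the log2 fold divided by the root of the F value. Transcript usage was tested with diffSpliceDGE on 24779 transcripts of 7539 genes. Alternatives used limma 3.58.1 and DESeq2 1.42.0. Floors are 3 counts; a fold against a line at 0 counts is a bound against 3 counts over that line, and intervals are 95%, both for counting error only. The lowest two-sided p of an exact permutation test of 3 against 3 is 0.1; calls therefore come from the fit over all genes. RSEM divides reads shared by gene copies or forms by a model, an error outside these tests.

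The ligands, the gene lists and the tests were chosen with earlier results of these data known. Of each list, up to 4 called genes per direction with the largest absolute fold were named, as were untested or uncalled partners; a few genes of the lists are not reported here and were left out of the counts. The 4 nearest genes on each side of a ligand were read. RefSeq and GENCODE tables of GRCh38 served for names, gene order, promoters, GC content and coding lengths only.

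Tested on simulated counts of A549 against H23 over 15179 genes, the gene test found 4% of genes with a log2 change of 0.5, 54% at 1, 92% at 2 and 98% at 4, and 12.1% of calls were false. The usage test over 7058 genes found 58.5% of 195 changed genes, and 23.0% of calls were false. In the gene simulation 14982 of the 15179 genes were unchanged, whereas 77.2% of genes were called in the data. The shares found and false therefore need not hold for the calls given here.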

Additional observations from a re-analysis of the deposited data

How the results depend on the processing

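The TPM fits changed the unit, the model and the filter together. On log2(TPM + 1) and log2(TPM + 0.1) with limma, genes with a mean TPM of at least 1, the median of all genes moved to -0.48 and -0.54 (-0.16 with upper quartile factors), and 3500 and 3482 genes were higher in A549, against 5801. There 2 and 2 ligands were higher and 3 and 3 lower, against 4 and 1 (PDCD1LG2 was not in that fit), and of the other regulators 3 and 3 were higher and 10 and 10 lower, against 7 and 3. On the same scales CD276 was -0.24 and -0.26 and CD47 -0.34 and -0.36, and PLGRKT was newly called, as it was with the GC and length trend removed. With the GC and length trend removed CD276 was 0.97, CD47 -1.05, STUB1 0.15 and HIP1R 0.0620, and 2 ligands were lower. The cause of these changes was not tested. The folds of CD274, PVR and ICOSLG kept their direction and call in each alternative run, in ranges of 1.31 to 3.77, 1.43 to 2.04 and -4.70 to -3.04.

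With 1 library left out at a time, 1 to 3 ligands were called for transcript usage, against 3, and 2 to 6 of the other regulators were lower, against 3, the 6 without H23 replicate 1. The fold of PLGRKT ran from -0.20 to 0.0954, the highest without H23 replicate 1. Simes adjustment called 0 ligands and 955 genes for usage. The replicate numbers do not pair the cultures: deviations of same-numbered libraries correlated at 0.0634, -0.0797 and 0.119. With the replicate block, usage was called in 1249 genes, against 1944, and in 2 ligands, without CD276 (edgeR adjusted p = 0.109), while 5 ligands were called for their level as before. Over the folds of the ligands and other named genes, 512 values kept their direction and call and 8 changed sign. Of the other values that kept their direction, 4 passed the test newly and 4 no longer passed. Among the 8, some also gained a call, as for CD47, or lost it, as for STUB1. Depth limits CD86, CD80, VTCN1 and LGALS9, with at most 11 counts in a library.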
